A study of Mus musculus with 6 samples.

Results

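Gp5 and Gp1bb encode platelet glycoprotein V and the beta chain of platelet glycoprotein Ib. The mRNA table of the study, as held here, names 4093 probes, and 2 of them, 1 for each gene, make up the set described here, out of 59729 probes on the array. Male C57BL/6J mice with heart failure (HF) had received isoproterenol, which stimulates β-adrenergic receptors, under the skin for 1 week (40 mg/kg/day), whereas saline was given to the control mice. The study's microarray methods state that RNA of 5 mice per group was mixed for heart, for whole blood and for plasma, whereas its extraction methods describe larger pools for blood. Plasma came from EDTA blood that was centrifuged repeatedly and passed through a filter, and whole blood, called blood below, was collected on removal of the eye. Each mixture was hybridised to 1 array, so that 6 arrays of a single colour were held and no condition had a replicate. No test, p value or SD could therefore be given for any difference, and errors are those that the scanner software states for a spot within an array. A difference larger than these errors is not shown to exceed the spread between mixtures of mice.

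Platelets have no nucleus, and their RNA comes from the megakaryocytes of the bone marrow that release them. On the platelet surface glycoprotein Ib, made of an alpha and a beta chain, forms a complex with glycoproteins IX and V. This complex binds von Willebrand factor and tethers platelets to an injured vessel wall. The beta chain is needed for the complex to reach the cell surface, and its loss causes the Bernard-Soulier bleeding disorder, whereas glycoprotein V is cleaved by thrombin. RNA of these genes in a tissue or in plasma is therefore commonly read as platelet or megakaryocyte RNA. In mixed samples of this kind, fewer platelets and less RNA per platelet cannot be told apart.

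Both genes lie on chromosome 16 in RefSeq (GRCm38.p6), and the transcripts named for both probes were found there. No other RefSeq gene overlaps Gp5, while Gp1bb overlaps 1 gene, Septin5, a septin of neurons and platelets. The place of the Gp1bb probe in its transcript was not analysed here, and the part of Septin5 transcripts in its signal was not tested. GATA1 is a transcription factor of megakaryocytes and erythroid cells that binds the letters GATA, and its own mRNA is described below. The motif GATA was searched on both strands in the window of 300 bases around each RefSeq start site. Gp5 had 3 matches, of which 2 extend to GATAA, a motif that contains GATA, and Gp1bb had 2, neither of which does. Of 32851 promoters of this length, 57.9% held GATA and 25.4% held GATAA, so that a match is common and is a description only. For each gene the match nearest to the start site is shown, 5′ to 3′ along the gene, with capitals for the 4 letters that read GATA on the opposite strand.
Gp5, chr16:30310841-30310870, minus strand, 76 bases before the start: ctggtaaggtcttTATCttgaggatgcaag
Gp1bb, chr16:18622408-18622437, minus strand, 21 bases before the start: gcacctccccgccTATCataagggaacaag

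Gp5 was bright in control blood and control plasma and dim in HF plasma. The processed signal, an intensity in arbitrary units after background subtraction, was 1782 ± 178 in the control heart and 207 ± 21.7 in the HF heart (signal ± error of the spot). In blood it was 9346 ± 935 for control mice and 1398 ± 140 for HF mice. In plasma it was 10046 ± 1005 for control mice and 31.9 ± 5.32 for HF mice. The HF mixture was dimmer than the control mixture in every tissue, and HF plasma was the dimmest of the 6. These signals were not scaled between arrays.

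Gp1bb varied far less. Its processed signal was 551 ± 55.4 in the control heart and 140 ± 15.4 in the HF heart. In blood it was 359 ± 37.9 for control mice and 168 ± 18.0 for HF mice. In plasma it was 308 ± 31.3 for control mice and 63.3 ± 5.01 for HF mice. Here too the HF mixture was the dimmer one in each tissue. Both probes had 1 spot per array, and on all 6 arrays that spot was flagged as well above background and was neither saturated nor an outlier.

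That flag also marked more negative control spots, which match no mouse transcript, on the array of HF plasma than elsewhere. Of 1200 such spots 12.4% were flagged there, against 0.5% to 4.33% on the other 5 arrays. In HF plasma 10.3% of them were at least as bright as Gp5 and 6.25% at least as bright as Gp1bb, and their 95th percentile was 70.4. Both members were thus dimmer than this percentile in HF plasma, and their levels there are also given as upper limits. On the other 5 arrays 0% of the negative control spots were as bright as Gp5, and at most 0.0833% were as bright as Gp1bb.

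Levels were then set on a common scale, as log2 signals that were quantile normalized over the 6 arrays. On this scale Gp5 was at 9.34 and 7.09 in heart, 12.70 and 11.49 in blood, and 13.22 and 6.01 in plasma (control and HF, respectively). From the highest, the order was control plasma, control blood, HF blood, control heart, HF heart and HF plasma, and the measured levels spanned 7.21 log2 units. With HF plasma as an upper limit, at 7.28, its order against HF heart is not settled, and control plasma was at least 5.94 log2 units above it. The smallest step in this order, from control plasma to control blood, was 0.52 with an error within the arrays of 0.20.

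Gp1bb was at 7.73 and 6.64 in heart, 8.44 and 8.01 in blood, and 8.66 and 7.12 in plasma (control and HF, respectively). Its levels spanned 2.02 log2 units from control plasma to HF heart and had the same first 4 places in their order. The order of HF heart and HF plasma is not settled, since the latter lies below the same limit. Control plasma and control blood, at a difference of 0.21 with an error of 0.21, could not be separated within the error. HF blood and control heart were also close, at 0.28 with an error of 0.21. Without scaling, the control heart was the brightest of the 6 mixtures for Gp1bb.

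**Figure D1:**
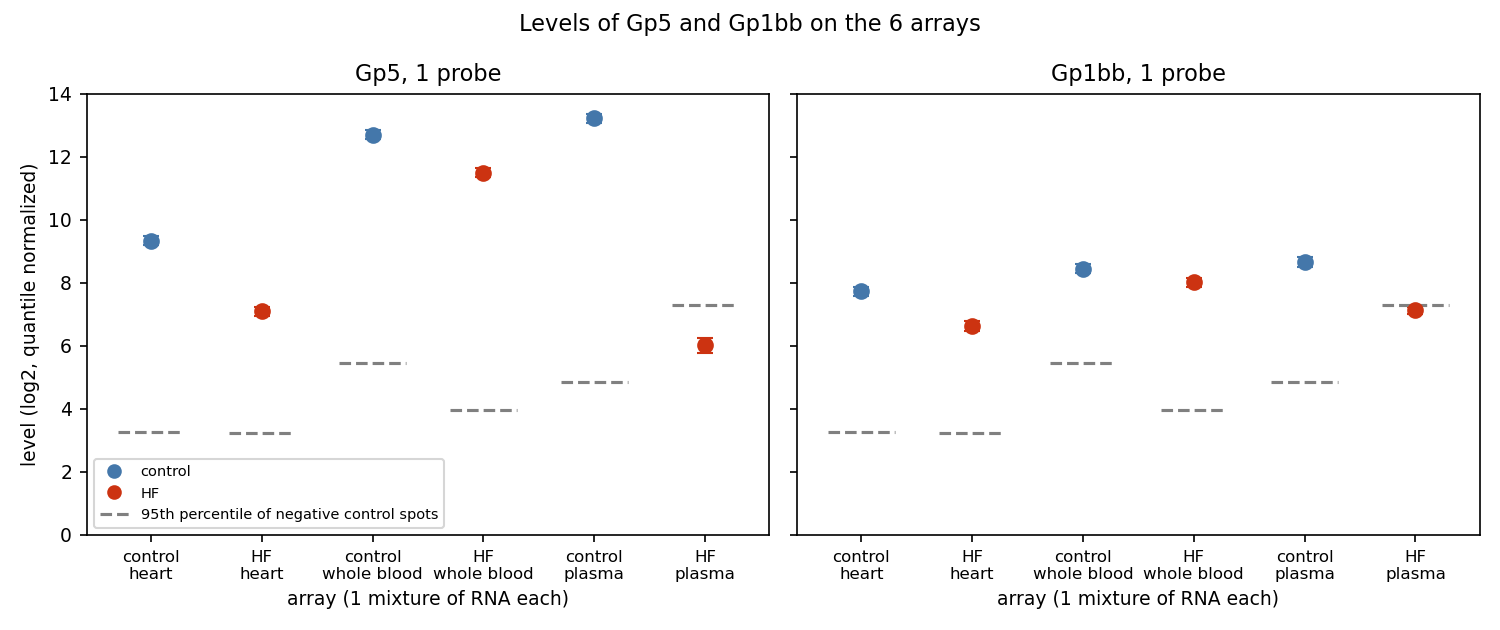
Levels of Gp5 (left) and Gp1bb (right) on the 6 arrays, on a log2 scale after quantile normalization, with control mixtures in blue and HF mixtures in red. Bars give the error of the spot within the array, and dashed lines the 95th percentile of the negative control spots; in HF plasma both genes lie below that line, Gp5 at 6.01 and Gp1bb at 7.12.

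The comparison of HF with control mice asks how the RNA of each tissue differs in heart failure. In the heart, Gp5 was 4.75-fold lower in HF mice (log2 fold change -2.25, error 0.21), and Gp1bb was 2.13-fold lower (-1.09, error 0.21). Both members passed 2-fold, while 12.9% of the 20065 probes detected on both heart arrays were lower and 13.9% higher by that much. Of these probes, 0.488% were as far down as Gp5 and 10.98% as far down as Gp1bb. Both heart arrays were scanned in the same session. With the normexp background correction, which models the background of an array, Gp1bb was lower by 1.66-fold, short of 2-fold, and Gp5 by 3.13-fold.

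In blood, Gp5 was 2.31-fold lower in HF mice (-1.21, error 0.20) and Gp1bb 1.35-fold lower (-0.44, error 0.22). Thus 1 of the 2 members passed 2-fold, while 26.8% of the 11938 probes detected on both arrays were lower and 21.4% higher by that much. Gp5 lay within the bulk of the distribution, since 22.6% of the probes were as far down, and for Gp1bb this share was 40.8%. Scaling to the 75th percentile of all probes gave a 4.46-fold lower Gp5. Without scaling Gp1bb also passed 2-fold, at 2.14-fold lower, and Gp5 was 6.69-fold lower. The 11938 probes then had a median log2 fold change of -0.93, so that Gp1bb, at -1.10, lay near that median. The Gp1bb difference shrank to 1.04-fold when arrays were scaled to the 75th percentile of the probes detected on all 6.

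In plasma, Gp5 was 148-fold lower in HF mice (-7.21, error 0.28), and 0.331% of the 12377 probes detected on both arrays were as far down. With the 95th percentile of the negative control spots as the floor of HF plasma, Gp5 was at least 61.4-fold lower. Gp1bb was 2.89-fold lower (-1.53, error 0.19), or at least 2.60-fold lower against the same floor. Both members passed 2-fold, as did 25.6% of these probes, while 32.1% were higher by that much. At its measured level Gp1bb was not set apart from the array as a whole, with 19.5% of the probes as far down. Since both members lay below the floor in HF plasma, their ranks among the probes are not settled.

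The members did not move to the same extent. The log2 fold change of Gp5 minus that of Gp1bb was -1.16 in heart (error 0.30), -0.77 in blood (error 0.30) and -5.68 in plasma (error 0.34), where both HF levels lay below the negative control percentile. The arrays of control blood and control plasma were scanned in another session than the other 4 arrays. In blood and plasma the scan session and heart failure cannot be told apart, since each condition had 1 array.

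**Figure D2:**
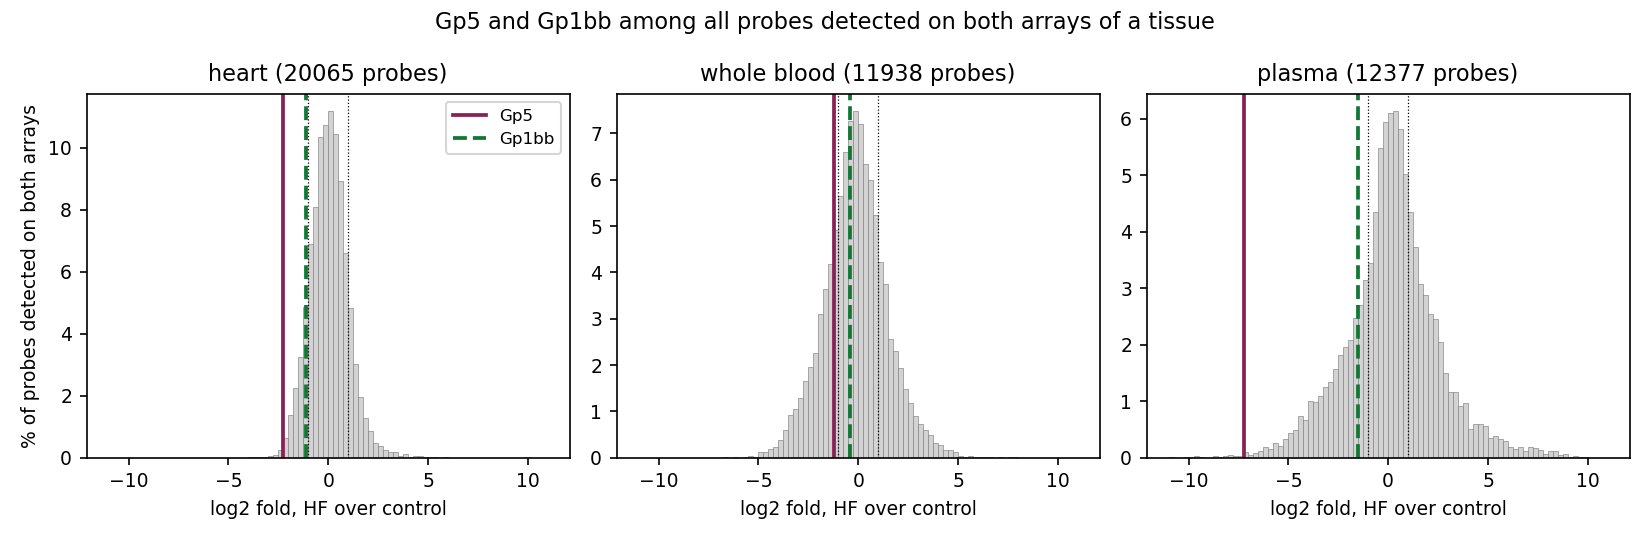
Distribution of the log2 fold change of HF over control across all probes detected on both arrays of heart, whole blood and plasma, in percent of probes, with Gp5 as a solid and Gp1bb as a dashed line. Dotted lines mark 2-fold. Gp5 lies in the lower tail in heart (-2.25) and plasma (-7.21) but not in whole blood (-1.21). At measured levels Gp1bb lies nearer to the centre in each tissue, but in HF plasma both genes lie below the negative control percentile.

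Plasma and blood were compared within each condition, and both arrays of each of these pairs were scanned in 1 session. In control mice neither member differed by 2-fold. Gp5 was 1.44-fold higher in plasma (0.52, error 0.20) and Gp1bb 1.16-fold higher (0.21, error 0.21). Without scaling Gp5 was 1.07-fold higher in plasma and Gp1bb 1.17-fold lower. These arrays were much alike, as 2.26% of the 14077 probes detected on both were at least 2-fold higher in plasma and 3.49% at least 2-fold lower.

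In HF mice, Gp5 was 44.6-fold lower in plasma than in blood (-5.48, error 0.28), or at least 18.5-fold lower with the negative controls as floor. Gp1bb was 1.84-fold lower (-0.88, error 0.19), or at least 1.66-fold lower against that floor, so that it is not known to fall short of 2-fold. Without scaling it was 2.65-fold lower, while the median log2 fold change of the probes detected on both arrays was then -0.44. Here 34.2% of the 11258 probes detected on both arrays were at least 2-fold lower in plasma and 35.8% at least 2-fold higher. At measured levels, 2.61% of all these probes were as far down as Gp5 and 35.9% as far down as Gp1bb. Whether the plasma-to-blood difference itself differs between HF and control mice was not tested.

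The heart holds blood in its vessels, and both members were detected in it. Gp5 was 10.3-fold higher in blood than in heart in control mice (3.36, error 0.20) and 21.1-fold higher in HF mice (4.40, error 0.21). Gp1bb was 1.64-fold higher in control mice (0.71, error 0.21) and 2.58-fold higher in HF mice (1.37, error 0.22). Gp5 thus passed 2-fold in both conditions and Gp1bb in HF mice alone, a call that was lost without scaling (1.20-fold) and with normexp (1.78-fold). Of the 13199 probes detected on both control arrays, 52.2% were at least 2-fold higher in blood and 22.1% lower, and of the 13106 of the HF pair 39% were higher and 37.8% lower. In the control pair, with a median log2 fold change of 1.13, 11.4% of the probes were as far up as Gp5 and 56.9% as Gp1bb. In the HF pair, with a median of 0.20, these shares were 7.45% and 34.0%. The control pair was scanned in different sessions and the HF pair in the same one, so the pairs are not like for like. Without scaling Gp1bb was 1.53-fold lower in control blood than in control heart, so its direction there depends on the scaling.

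The other platelet and megakaryocyte genes were taken from a list of 29 genes, of which 14 had a named probe. Of these 14, all were detected in the control heart and 8 in the HF heart, 12 and 9 in control and HF blood, and 12 and 6 in control and HF plasma. Where a gene was detected on 1 array of a pair, its fold change is a bound, taken against the higher of its own level and the lowest level of detected probes on the other array. The bound was set to no change where the detected level was not above that reference. In heart 2 of the 14 genes were at least 2-fold lower in HF mice, Ly6g6f and Gata1, and 1 was higher, Cd9, while 10.2% of the 29112 probes detected on at least 1 heart array were lower and 12.6% higher. The count of 2 depends on the processing, from 1 with normexp to 11 without scaling, and was 5 with the negative control percentile as floor. No share of all probes was computed for these settings. Without scaling the median log2 fold change of the probes detected on both heart arrays was -0.71, so that the count of 11 includes a shift of the whole array. In blood 8 of 14 were lower and 1 higher, against 25% and 20.3% of 20763 probes. In plasma 7 of the 13 that were detected were lower, 6 of them by a bound, and 2 were higher, against 24.7% and 31.4% of 24964 probes. Cd9 had outlier spots in control blood and control plasma, so that its bounds counted as no change. Its measured log2 differences were -1.91 in blood and -7.77 in plasma. With the negative control percentile as floor, 5 of 12 were lower and 2 higher, against 15.7% and 23.2% of 21575 probes. The median log2 fold change of the 14 genes, with undetected levels as measured, was -0.72 in heart, -1.96 in blood and -2.52 in plasma. Medians over all probes were 0.02, 0.00 and 0.01, but the normalization holds these near 0. Over the probes detected on both arrays they were 0.02, -0.13 and 0.21. These are not like for like, since the list medians include undetected levels, in HF plasma those of all but 6 of the 14 genes.

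Between plasma and blood of control mice, 2 of 12 detected list genes were at least 2-fold lower in plasma, Gp6 and Ly6g6f, and 0 were higher, against 5.66% and 2.41% of 20847 probes. In HF mice 5 of 10 were lower and 3 higher, against 31.1% and 32.1% of 23860 probes. With the negative control percentile as floor, 4 of 9 were lower and 2 higher. No share of all probes was computed for that floor, so these counts cannot be set against the array as a whole. Between blood and heart, 9 of 14 were higher and 0 lower in control blood, against 28.7% and 21.1% of 29962 probes. In HF mice 7 of 11 were higher and 2 lower, against 34.4% and 34.1% of 25611 probes.

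Among surface receptors, Gp6, the collagen receptor of platelets, was at 9.65 in control blood and 8.61 in control plasma and was not well above background in HF mice in any tissue. It was lower by at least 22.0-fold in HF blood and, with the negative control percentile as floor, by at least 2.52-fold in HF plasma. F2rl3, a receptor for thrombin, and P2ry1, a receptor for ADP, were also lower in HF blood, by at least 3.79-fold and at least 5.19-fold, and had no bound above 1-fold in plasma with that floor. Other receptors went in both directions. Tbxa2r, the thromboxane receptor, was 2.27-fold lower in blood of HF mice but 2.21-fold higher in their plasma. Pear1, a receptor of platelets and endothelium, was higher in HF mice by 2.22-fold in blood and by 10.50-fold in plasma. Cd9, an abundant tetraspanin of platelets that other cells also carry, was at 13.83 in control blood and 13.22 in control plasma, where its spots were flagged as outliers. In HF mice Cd9 was at 11.92 in blood and at 5.45 in plasma, below the negative control percentile. In heart Cd9 went the other way, from 9.55 in control to 11.56 in HF mice, a 4.03-fold difference.

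Among transcription factors, Gata1 was at 11.60 in control blood, 9.58 in HF blood and 11.40 in control plasma, and was not well above background in HF plasma. In HF mice it was lower by 4.05-fold in blood, by at least 11.4-fold in heart and, with the negative control percentile as floor, by at least 17.4-fold in plasma. The factors Nfe2 and Gfi1b, which act in the megakaryocyte and erythroid lineages, differed by less than 2-fold between HF and control in each tissue. Nfe2 stood at 10.24 in plasma of control mice and 9.59 in that of HF mice, and Gfi1b at 10.17 and 9.39. Both of these were detected in HF plasma, whereas Gata1 was not.

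**Figure D3:**
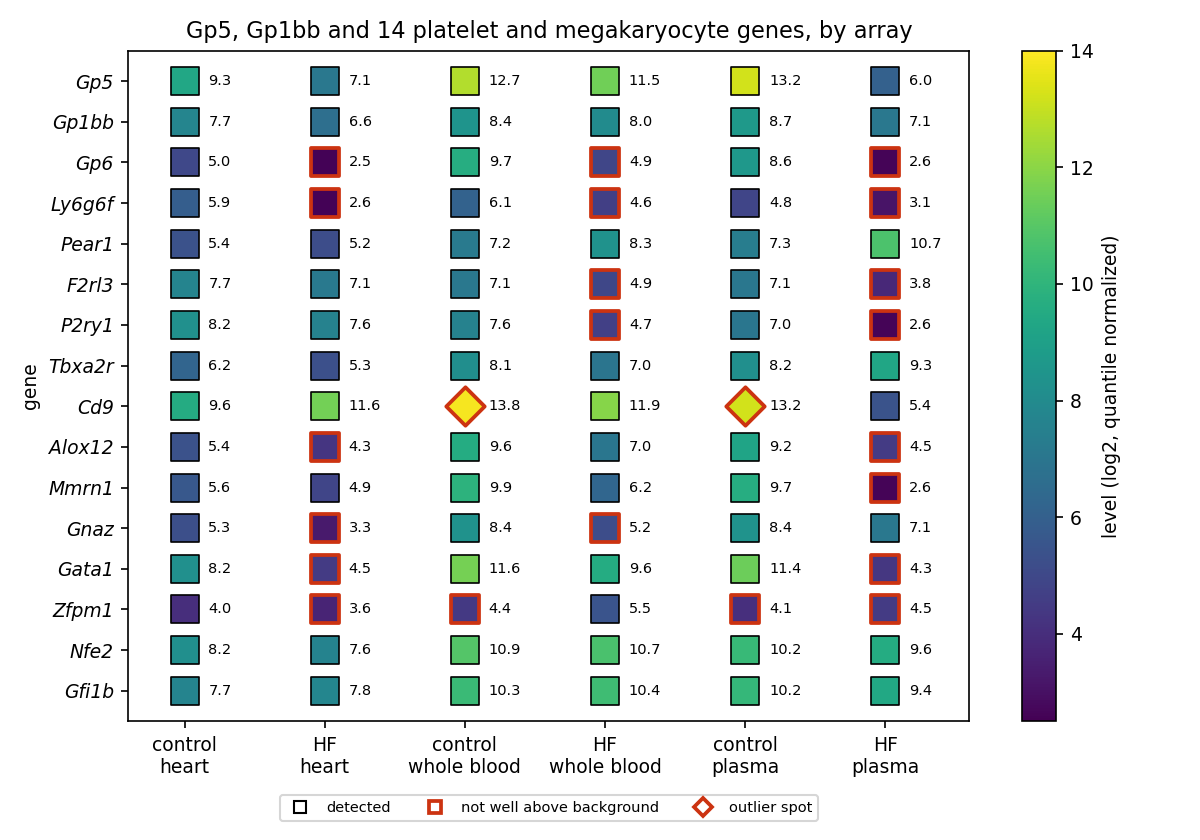
Levels of Gp5, Gp1bb and 14 platelet and megakaryocyte genes (rows) on the 6 arrays (columns), as log2 values after quantile normalization, coded by colour and printed beside each square. Red outlines mark spots that were not well above background and red diamonds outlier spots; in HF plasma 6 of the 14 list genes were detected, among them Pear1 at 10.72 and Nfe2 at 9.59, and 4 of the 6 were above the negative control percentile of 7.28.

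Levels of other cell types differed in the same comparisons. The 6 erythroid genes had a summed level that was 39.1-fold lower in plasma of HF mice than of controls. All 5 that were detected on at least 1 of these arrays were at least 2-fold lower, against 24.7% of all probes. Hba-a1, an alpha globin, was at 17.53 in plasma of control mice and 13.49 in that of HF mice. In blood the summed erythroid level was 1.33-fold lower in HF mice, and 1 of the 6 genes was at least 2-fold lower, against 25% of all probes. In control blood 2 of the 6 had outlier spots, so that their bounds counted as no change, although their measured levels were lower in HF blood. With all levels as measured, the median log2 fold change of the 6 genes in blood was -1.36. In heart Hba-a1 was at 16.70 in control and 16.74 in HF mice, while Gp5 was at 9.34 and 7.09 on the same arrays. Hba-a1 does not stand for the whole list there. Alas2 (log2 fold change 1.46) and Bpgm (2.61) passed 2-fold upward, and 0 of the 6 passed it downward. For all probes these shares were 12.6% and 10.2%. Hbb-b1 was at 0.58, Fech at -0.10 and Gypc at -0.67, and the median of the 6 was 0.31. Their summed level was 171624 in the control heart and 205294 in the HF heart. The part of erythroid RNA, or of the amount of blood in the hearts, in the Gp5 values was not tested.

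Leukocyte genes went in both directions. All 5 neutrophil genes were at least 2-fold higher in HF blood, and 4 of 5 in HF plasma, against 20.3% and 31.4% of all probes. S100a9 was at 9.77 in control and 11.92 in HF plasma. The 3 B cell genes were all at least 2-fold lower in HF blood and 2 of them in HF plasma, against 25% and 24.7% of all probes. Of the 3 T cell genes 1 was detected in blood, Cd3e, at 9.30 in control and 9.98 in HF mice. In HF plasma 2 of 3 were higher by 2-fold or more, against 31.4% of all probes. With the negative control percentile as floor 1 of 2 was higher, against 23.2%. Of the 2 monocyte genes, Cd68 was higher in HF blood, at 10.28 against 7.32, and in HF plasma, at 8.94 against 7.62. The part of the cell makeup in the Gp5 and Gp1bb values was not tested.

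Genes of solid tissue were present in HF blood. All 7 cardiomyocyte genes were detected in both hearts. Of the 7, 5 were at least 2-fold higher in HF than in control blood, as were all 4 fibroblast genes detected there. The share of all probes was 20.3%. In HF plasma 1 of the 3 detected cardiomyocyte genes was higher, against 31.4% of all probes, and 3 of the 4 detected fibroblast genes were lower, against 24.7%. With the negative control percentile as floor these counts were 0 of 3, against 23.2% of all probes higher, and 1 of 4, against 15.7% lower. The latter was Dcn, a proteoglycan of connective tissue, at 10.98 in control and 7.73 in HF plasma. Myh6, a cardiac myosin, was brighter in blood than in heart at its named probe, at 14.47 in control blood and 10.88 in control heart, so this probe goes against its label as a heart marker. The probes read for Dcn (10.60 and 9.93) and Eng (9.85 and 6.20) were also brighter in control blood than in control heart. By contrast, 6 of the 7 cardiomyocyte and 3 of the 4 detected fibroblast genes were at least 2-fold lower in control blood than in control heart, against 21.1% of all probes. Of the 2 endothelial genes 1 was at least 2-fold lower in HF plasma, Eng, at 9.71 in control and 8.57 in HF plasma, against 24.7% of all probes. The other, Flt1, was not well above background in control plasma, at 3.42. It was detected in HF plasma at 5.45, below the negative control percentile. Crygd, of the eye lens, was at 5.77 in control and 7.54 in HF plasma. The part of these tissues in the values of Gp5 and Gp1bb was not tested.

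Likeness of pattern was measured as Pearson's r of the log2 levels over the 6 arrays, among 3728 named probes detected on at least 3 of them, and is a description. The levels of Gp5 and Gp1bb had an r of 0.944 with each other. Of the other probes, 1.23% were at least as close to Gp5 as Gp1bb was, and 0.483% at least as close to Gp1bb as Gp5 was. The 5 closest to Gp5 were Tfdp2, a partner of E2F factors, at 0.989, Gata1 at 0.987, Fam65a at 0.986, Banp at 0.985 and Trmt1, a tRNA methyltransferase, at 0.983. In HF plasma Tfdp2, Fam65a and Trmt1 were at 2.62, the lowest level of that array, and Gata1 and Banp were at 4.31 and 3.80. All 5 thus lay below the lowest level of detected probes on that array, 5.37. The 5 closest to Gp1bb were Sbf1 at 0.995, Nfatc2, a transcription factor of T cells, at 0.991, Zfp936 at 0.974, 8430408G22Rik at 0.974 and Cacnb3, a calcium channel subunit, at 0.973. The 6 points share arrays and scan sessions, and 132 probes had an r of at least 0.9 to Gp5 and 67 to Gp1bb.

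The directions of Gp5 were the same under every scaling, background correction and detection rule tried, and those of Gp1bb under all but the absence of scaling. The sizes were not. Gp5 in plasma ranged from a log2 fold change of -8.30 without scaling to -5.92 with the normexp background correction.

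**Figure D4:**
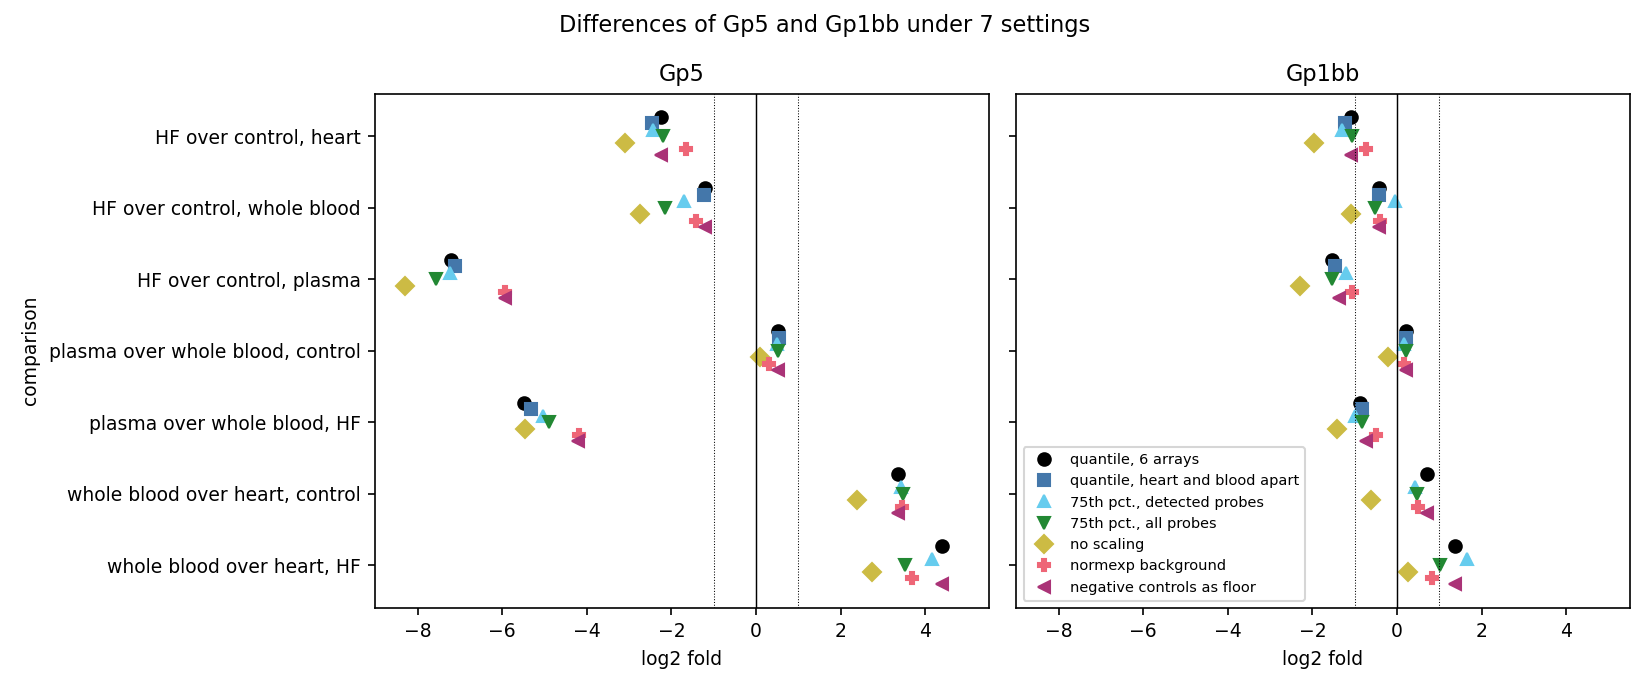
Log2 fold changes of Gp5 (left) and Gp1bb (right) in the 7 comparisons (rows) under up to 7 settings (symbols; normalization of heart and blood apart gives no value for blood over heart), with dotted lines at 2-fold. Gp5 keeps its side of 0 throughout and spans -8.30 to -5.92 for HF over control plasma; Gp1bb crosses 0 without scaling in the comparisons of control plasma with control whole blood and of control whole blood with control heart.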

How the data were processed

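The authors hybridised labelled RNA to Arraystar arrays of an Agilent design annotated on mm9 and read the images with Feature Extraction (version 11.0.1.1). The deposited files hold an intensity per spot in a single colour, with background subtracted and no normalization between arrays, and flags per spot. A combined table of all arrays gave the same processed signal, with 0 spots that differ. The study's methods name quantile normalization and a 2-fold threshold. Members and lists were chosen with earlier results of these data known. Gene names came from the paper's mRNA table as held here, a shortened copy with 4093 probes.

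Spots of the same probe were averaged as log2 intensity, and the 59729 probes were quantile normalized across the 6 arrays. A probe was detected if most of its spots carried the flag for well above background and no outlier flag. A gene with several probes was read at the probe brightest on average. The genes named were both members, Gp6 and the 6 list genes brightest in blood, the brightest gene of each other marker list, and the 5 probes most like each member. Ly6g6f, F2rl3, P2ry1 and Flt1, outside that rule, were named after their values were seen. The gene that the rule names for the B cell list is not reported here. With 1 array per condition no test was run. Errors of a fold change combine the spot errors of both arrays, whose median was 10.5% to 11.2% of the signal. The spread of 20 spots of 1 probe was a median SD of 0.05 to 0.20 on the log2 scale. The precision of every value is limited by the number of arrays. Alternatives changed the scaling, the background correction (normexp on spot and local background medians, offset 50), the detection rule and the threshold, and the floor from negative controls was chosen after seeing the data. The steps were tested on simulated arrays. Promoter sequences are those of RefSeq, and 12 of the 14 platelet list genes matched. Of these 12, 6 held GATA, against 57.9% of all promoters, and 5 held GATAA, against 25.4%. Python 3.11.15, numpy 2.4.6, pandas 2.3.3, R 4.3.3 and limma 3.58.1 were used.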

Additional observations from a re-analysis of the deposited data

Results flagged for a closer look

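Tbxa2r, the thromboxane receptor, went in opposite directions in blood, with a log2 fold change of HF over control of -1.18 in whole blood and 1.14 in plasma, and was detected on all of these arrays. This difference was not tested, since each condition had 1 array.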

How the results depend on the processing

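No paired analysis was possible because each condition had 1 array, and for the same reason no replicate was left out. Of 108 member values under alternative settings 106 kept their sign and 39 moved by more than the error within arrays. Values are log2 fold changes, and the cause of the shifts was not tested.

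Without scaling, which moved the median of all probes by -0.65 in heart, -1.04 in blood and -0.53 in plasma for HF over control, Gp5 was at -3.10, -2.74 and -8.30 and Gp1bb at -1.97, -1.10 and -2.28. Plasma over whole blood was 0.10 for Gp5 in control mice, and -0.22 in control and -1.41 in HF mice for Gp1bb. Whole blood over heart was 2.39 in control and 2.75 in HF mice for Gp5, and -0.62 and 0.26 for Gp1bb. With normexp, HF over control was -1.64 in heart, -1.42 in whole blood and -5.92 in plasma for Gp5, and -0.73 in heart and -1.06 in plasma for Gp1bb. Plasma over whole blood was 0.31 in control and -4.19 in HF mice for Gp5 and -0.49 in HF mice for Gp1bb, and whole blood over heart was 3.68 in HF mice for Gp5, and 0.50 in control and 0.83 in HF mice for Gp1bb.

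Scaled to the 75th percentile of all probes, Gp5 was at -2.16 in whole blood and -7.57 in plasma for HF over control, -4.88 for HF plasma over whole blood and 3.52 for HF whole blood over heart, and Gp1bb at 0.48 in control and 1.02 in HF mice for whole blood over heart. Scaled to that of probes detected on all 6 arrays, HF over control was -1.70 in whole blood for Gp5, and -0.050 in whole blood and -1.21 in plasma for Gp1bb. Plasma over whole blood in HF mice was -5.04 for Gp5, and whole blood over heart was 4.16 in HF mice for Gp5, and 0.42 in control and 1.66 in HF mice for Gp1bb. With negative controls as floor, which by construction raises the level in HF plasma, Gp5 was at -5.94 for HF over control plasma and -4.21 for HF plasma over whole blood.

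The count of platelet list genes lower in HF heart, 2 in the report, was 6 at 1.5-fold, 1 at 4-fold, 6 when scaled to probes detected on all arrays, 11 without scaling, 1 with normexp, and 5 with the negative control floor, with the weaker detection flag or with no detection filter. In plasma it was 4 at 4-fold in place of 7. No share of all probes was computed for these alternative counts.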
